A study of Mus musculus with 38 samples.

Results

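The genes studied here, 10 at the centre of the epithelial-to-mesenchymal transition (EMT), were followed through SOX9 reprogramming of mouse epidermal stem cells (EpdSCs). They were the cadherin genes *Cdh1* and *Cdh3*, the transcription factor genes *Snai1*, *Snai2*, *Zeb1*, *Zeb2*, *Twist1* and *Twist2*, and the structural genes *Vim* and *Fn1*. These 10 of 21938 protein-coding genes were chosen by name. Each was read as its gene body with 20 kb on both sides (mm10, GENCODE annotation), a window of 42.2 kb for *Twist1* to 224 kb for *Zeb1*, and every interval of 14 called lists that touched the window by at least 1 bp was counted to it.

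The lists came from MINT-ChIP, in which barcoded chromatin from several samples is pooled before a single immunoprecipitation. In skin, 5 lists of H3K27ac peaks and 5 lists of H3K4me1 domains covered D0, W1, W2, W6 and W12 after induction. In culture, 4 lists of H3K4me1 domains covered cells carrying wild-type SOX9 (WT) without and with doxycycline (DOX), and cells carrying ΔHMG-SOX9 or ΔTA-SOX9 with DOX. The list without DOX was thus from WT cells, also where the truncated forms were compared with it. The 38 libraries fell into 16 groups, 12 libraries each for H3K4me1, H3K27ac and total H3 in skin and 2 in culture. Total H3 and the barcode keys were not used here.

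All skin cells were from male mice labelled K14rtTA; TRE-myc-Sox9, in which the keratin 14 promoter drives the DOX-responsive activator, so that the MYC-tagged *Sox9* transgene is turned on in basal epithelial cells. At D0, W1, W2 and W6 the mice had received DOX by injection at P21 and then in the chow, or at D0 none yet. At W12 the cells came from newborn back skin grafted onto immunodeficient Nude female hosts and induced after healing, so that weeks of SOX9, grafting and host cannot be told apart at that time. W2 replicate 1 was pooled into the W12 libraries under barcodes of its own. EpdSCs were sorted as CD49f-high, CD34-negative and Ly6A-high after removal of CD31, CD45, CD117 and CD140a positive cells, the surface antigens of endothelial cells, leukocytes, melanocytes and fibroblasts. The cultured cells were keratinocytes from male back skin labelled K14rtTA; TRE-myc-Sox9varients, with WT or truncated SOX9 introduced by lentivirus. ΔHMG-SOX9 lacks the DNA-binding domain and ΔTA-SOX9 lacks the transactivation domain.

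EMT is the programme by which epithelial cells loosen their junctions and take up a migratory, mesenchymal form. E-cadherin, encoded by *Cdh1*, holds neighbouring epithelial cells together, and the SNAI, ZEB and TWIST proteins are known to repress it through short E-box motifs. H3K27ac marks active promoters and enhancers, whereas H3K4me1 spreads over enhancers that are active or only primed, and a locus may therefore carry H3K4me1 without H3K27ac.

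Each list merged the replicates and both MNase digests of its group. No value below has a spread between replicates, none could be tested, and all differences are differences between single lists. The H3K27ac lists held 29081 to 33985 peaks and covered 27.3, 29.3, 32.1, 30.4 and 23.1 Mb from D0 to W12. The skin H3K4me1 lists held 69439 to 87287 domains (264 to 310 Mb), and the culture lists 110589 to 123338 (120 to 133 Mb). Read depth was not given; the pileup that H3K27ac background reached in the peak lists ranged from 0.299 at W1 to 0.677 at W6, so folds from different lists were read beside their rank within the list. W12 stood apart, with the most and the narrowest peaks (median 476 bp against 635 to 821 bp). There 73.9% of peaks overlapped an H3K4me1 domain of the same time by at least 1 bp, against 94.1 to 97.4% elsewhere. Its H3K27ac list was also the only one whose name carried a q-value cutoff. A covered length was called higher or lower than at D0, or than without DOX in culture, when it differed by at least 1.5-fold and the larger value reached 500 bp.

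The sorted cells carried the marks of basal epidermis. *Krt5*, *Krt14*, *Itgb4* and *Col17a1*, 4 of 6 basal markers, had an H3K27ac peak at their promoter (within 1000 bp of the start site) at all 5 times, and the summed H3K27ac of the list was 70.1 to 105 kb. None of 7 fibroblast markers (which include *Twist2*) or 6 immune markers had a promoter peak at any time, with summed H3K27ac of 1.10 to 2.34 kb and 1.04 to 2.82 kb. Of 5 endothelial markers, *Emcn* had one at W12 only, and the list's H3K27ac was 8.72 to 15.5 kb, nearly all of it in the *Pecam1* window (8.72 to 15.5 kb), with at most 0.802 kb at any of the other 4. *Pmel* of 5 melanocyte markers had one at every time, joined by *Mitf* at W6, and *Acta2* of 4 pericyte markers also had one at every time.

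Across the 10 loci H3K27ac was found at fewer genes than H3K4me1. The 2 cadherins and *Snai2* had H3K27ac at every time, and the cadherins had the most, at 6.73 kb or more. *Snai1*, *Twist1* and *Fn1* had no H3K27ac peak in any list, *Vim*, *Zeb1* and *Zeb2* had peaks at W12 only, and *Twist2* had 1 each at W1 and W12. At W12 *Zeb1*, with 1.86 kb in its much longer window, had more kb than *Snai2*, with 1.60 kb. As a share of the window the order was the reverse, at 0.831% for *Zeb1* and 3.67% for *Snai2*. At least 1 peak lay in 3, 4, 3, 3 and 7 of 10 windows from D0 to W12 (64.1, 64.1, 63.5, 65.4 and 66.2% of all genes). Promoter H3K27ac was present at 3 of 10 genes at D0 (42.4% of all genes), W1 (40.8%), W2 (41.7%) and W6 (46.0%), each time *Snai2*, *Cdh1* and *Cdh3*, and at 4 of 10 at W12 (34.0%), when *Vim* was added. H3K4me1 was far more widely shared. It lay at the promoter of 10, 9, 10, 9 and 9 of 10 genes from D0 to W12 (66.8, 61.7, 62.7, 65.9 and 62.2% of all genes); the exceptions were *Twist1* at W1 and *Zeb1* at W6 and W12. The EMT regulators thus held H3K4me1 at their promoters before induction, without H3K27ac at most of them. At *Zeb1*, however, the D0 domain reached only 60 of the 2001 promoter bases.

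**Figure D1:**
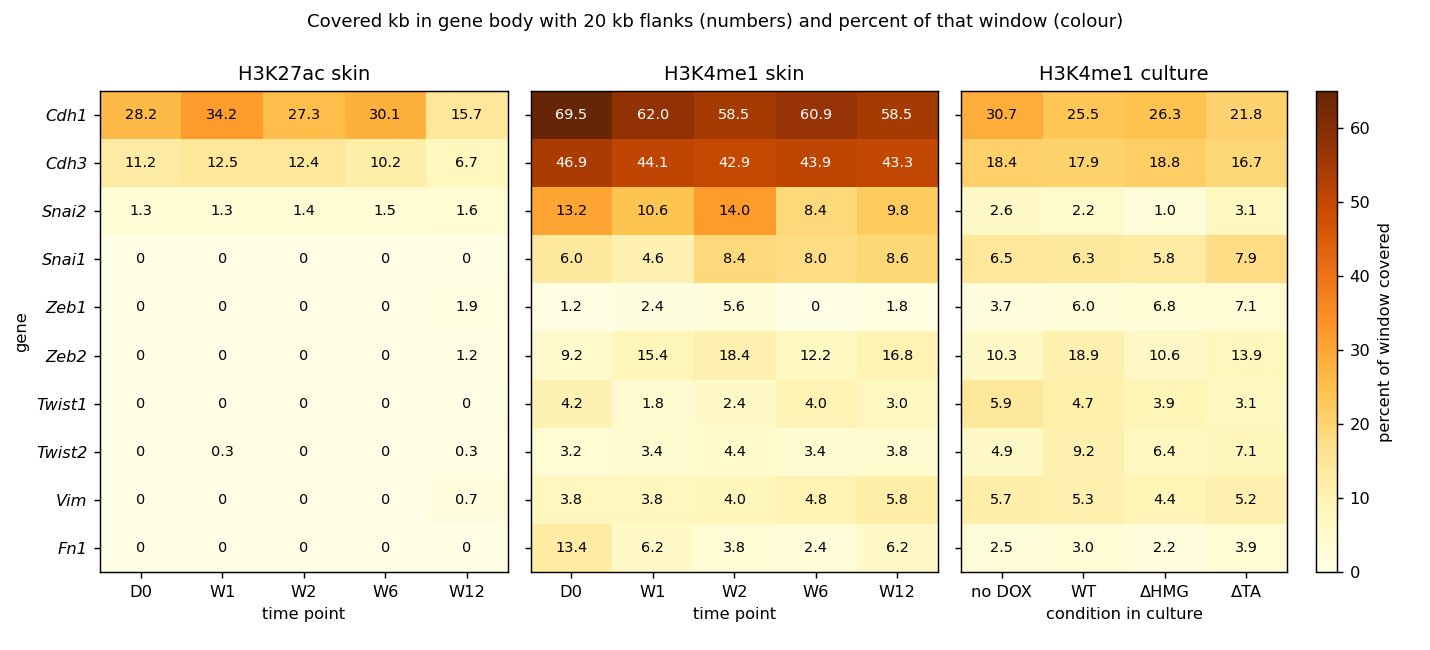
Bases covered by called intervals in the gene body with 20 kb flanks of each of the 10 genes (rows), as kb (numbers) and as percent of the window (colour), in each of the 5 H3K27ac and 5 H3K4me1 lists of skin and the 4 H3K4me1 lists of culture (columns). *Cdh1* and *Cdh3* carry 6.73 to 34.2 kb of H3K27ac at all times, and *Vim*, *Zeb1* and *Zeb2* carry some at W12 only.

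*Cdh1* (mm10 chr8:106603351-106670246, plus strand) was among the genes most densely covered by H3K27ac in these cells. Its window, which also takes in the start of the neighbouring *Tango6*, held 18, 12, 12, 17 and 15 peaks from D0 to W12. These covered 28.2, 34.2, 27.3, 30.1 and 15.7 kb. Coverage was thus steady to W6 and lowest at W12, at 1.79-fold less than D0. As a share of the window, 0.210 to 0.775% of all genes, depending on the time, were covered as densely or more. The highest fold over background was 41.98 at D0 and 23.10, 21.05, 23.86 and 18.42 at the later times, with pileups of 62, 29, 29, 39 and 25 reads. Within each list, however, the strongest *Cdh1* peak stood high, in the top 0.876, 0.403, 1.93, 2.34 and 0.874% of peaks.

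The *Cdh1* peaks formed 13 separate regions, of which 7 were called at every time. A region in intron 2, from 11.2 to 23.5 kb downstream of the start site, had the highest fold at D0, W2 and W12, and the promoter region had it at W1 and W6. The intron 2 summit was placed at 19.6 kb in all 5 lists, within 62 bp of each other. The promoter region, from -0.691 to 10.3 kb, had folds of 39.3, 23.1, 19.6, 23.9 and 12.04 from D0 to W12. Its strongest summit was less fixed, at 246, 1138, 343, 1128 and 1128 bp downstream of the start site, so these folds do not follow a single site. At W1, W6 and W12 that summit lay beyond the 1000 bp promoter. The intron 2 region had 42.0, 20.8, 21.1, 23.3 and 18.4, so that these regions were alike up to W6 and intron 2 stood above the promoter at W12. Of the other lasting regions, 4 lay further into intron 2, between 27.8 and 44.5 kb, with folds of 3.54 to 13.3. The last, at 79.6 to 80.3 kb, covered the first exon of *Tango6*. A pair of weaker regions, at 44.6 to 45.0 kb (fold 5.998) and 53.1 to 53.6 kb (fold 5.18), was called at D0 only.

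*Cdh3* (mm10 chr8:106510891-106557297, plus strand) encodes P-cadherin, the cadherin of basal and hair placode cells, and lies just upstream of *Cdh1* on the same strand. The windows of these neighbours do not overlap, but an H3K4me1 domain between the genes reaches into both and was counted to each. *Cdh3* held 8, 9, 7, 10 and 8 peaks from D0 to W12, which covered 11.2, 12.5, 12.4, 10.2 and 6.73 kb. As at *Cdh1*, coverage was steady to W6 and lowest at W12, here 1.66-fold below D0. The highest folds were 16.7, 13.1, 14.0, 17.9 and 9.92, in the top 11.1, 5.09, 9.06, 7.27 and 10.6% of their lists. Of 12 regions, 5 were called at every time: the promoter (-0.442 to 1.75 kb), a pair in intron 2 (7.90 to 11.2 kb and 14.6 to 19.9 kb) and a pair downstream of the gene (49.5 to 51.7 kb and 52.4 to 54.0 kb). They differed in course. The 14.6 to 19.9 kb region went from fold 16.7 at D0 to 8.47, 10.5, 8.35 and 5.67, whereas the downstream region at 49.5 to 51.7 kb was highest at W2, with 9.33, 9.24, 14.0, 8.95 and 7.79. At W12 a region at -4.18 to -3.01 kb upstream appeared with fold 8.50, and one at 65.8 to 66.2 kb was called at D0 only.

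These 4 summits are shown because, among the regions called at every time, they had the highest folds of those whose top summit lay in a 300-base window free of annotated UTR. The *Cdh1* promoter (fold 39.3) and the *Tango6* exon (fold 15.3) are not shown for that reason. Each line gives 300 bases of the plus strand of mm10, 5′ to 3′, centred on the summit. Capitals mark a match to a SOX core (ACAAAG or ACAATG on either strand), an E-box (CAGGTG or CACCTG) or an AP-1 site (TGACTCA or TGAGTCA). The first is the *Cdh1* intron 2 summit at D0, the second the *Cdh3* promoter-proximal summit at W6, which spans the end of exon 2, the third the *Cdh3* intron 2 summit at D0 and the fourth the *Cdh3* downstream summit at W2.
Cdh1 intron 2, chr8:106622766-106623065: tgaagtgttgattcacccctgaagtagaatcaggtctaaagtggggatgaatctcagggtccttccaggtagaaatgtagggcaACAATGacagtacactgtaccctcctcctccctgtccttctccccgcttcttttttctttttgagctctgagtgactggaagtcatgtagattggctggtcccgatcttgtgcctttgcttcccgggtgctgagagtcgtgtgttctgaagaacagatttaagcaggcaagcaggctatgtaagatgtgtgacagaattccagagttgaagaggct
Cdh3 promoter-proximal, chr8:106511256-106511555: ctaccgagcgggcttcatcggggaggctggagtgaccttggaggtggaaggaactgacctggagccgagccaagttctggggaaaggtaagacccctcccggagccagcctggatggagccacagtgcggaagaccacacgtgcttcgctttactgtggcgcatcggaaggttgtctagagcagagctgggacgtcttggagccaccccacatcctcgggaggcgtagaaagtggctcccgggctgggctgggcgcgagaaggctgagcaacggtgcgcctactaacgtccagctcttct
Cdh3 intron 2, chr8:106526738-106527037: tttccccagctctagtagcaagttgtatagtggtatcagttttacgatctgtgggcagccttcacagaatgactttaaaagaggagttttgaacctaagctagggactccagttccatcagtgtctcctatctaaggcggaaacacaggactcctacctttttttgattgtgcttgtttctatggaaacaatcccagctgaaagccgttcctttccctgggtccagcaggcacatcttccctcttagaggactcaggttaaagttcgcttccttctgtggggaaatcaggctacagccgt
Cdh3 downstream, chr8:106561390-106561689: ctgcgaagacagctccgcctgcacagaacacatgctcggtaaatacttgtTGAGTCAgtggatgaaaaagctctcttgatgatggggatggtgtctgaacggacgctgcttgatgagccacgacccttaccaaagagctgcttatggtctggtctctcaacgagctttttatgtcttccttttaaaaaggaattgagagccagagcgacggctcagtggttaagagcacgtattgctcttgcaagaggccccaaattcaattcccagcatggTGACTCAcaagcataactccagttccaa
The *Cdh1* summit held 1 SOX core, and the *Cdh3* downstream summit held 2 AP-1 sites. No E-box of these letters was found in any of the 4. Among 300-base windows at all 30268 D0 summits, 29.1% held a SOX core, 22.7% an E-box and 6.11% an AP-1 site. Single matches to a SOX core or an E-box are thus common, and those to an AP-1 site less so. Windows with 2 AP-1 sites were not counted. The *Cdh3* promoter-proximal window was rich in CpG, with 19, against 4, 5 and 10 in the others.

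**Figure D2:**
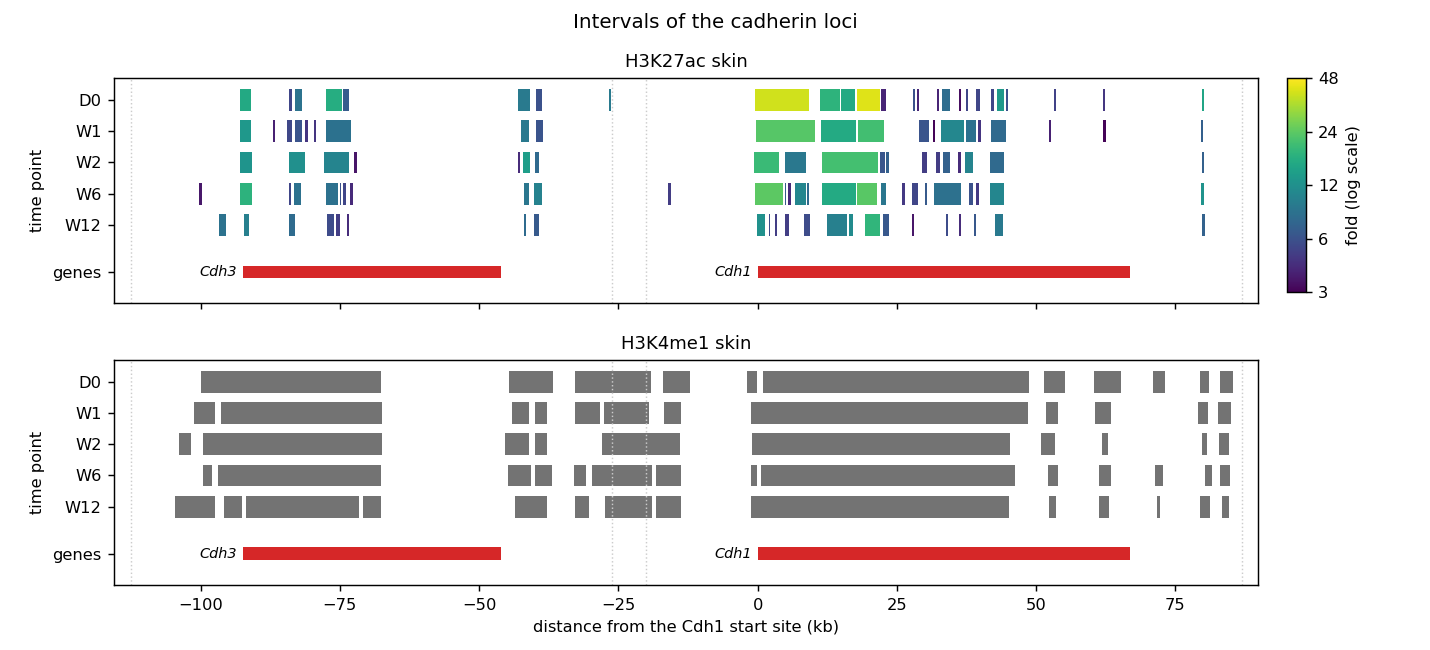
Called intervals around *Cdh3* and *Cdh1* at the 5 times, drawn by distance from the *Cdh1* start site in kb, with H3K27ac peaks coloured by fold on a log scale (upper panel) and H3K4me1 domains in grey (lower panel); red bars are gene bodies and dotted lines the window edges. The *Cdh1* promoter and intron 2 regions are called at every time and are narrowest at W12, whereas the broad H3K4me1 domain over *Cdh1* spans 45.6 to 49.6 kb at all times.

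**Figure D3:**
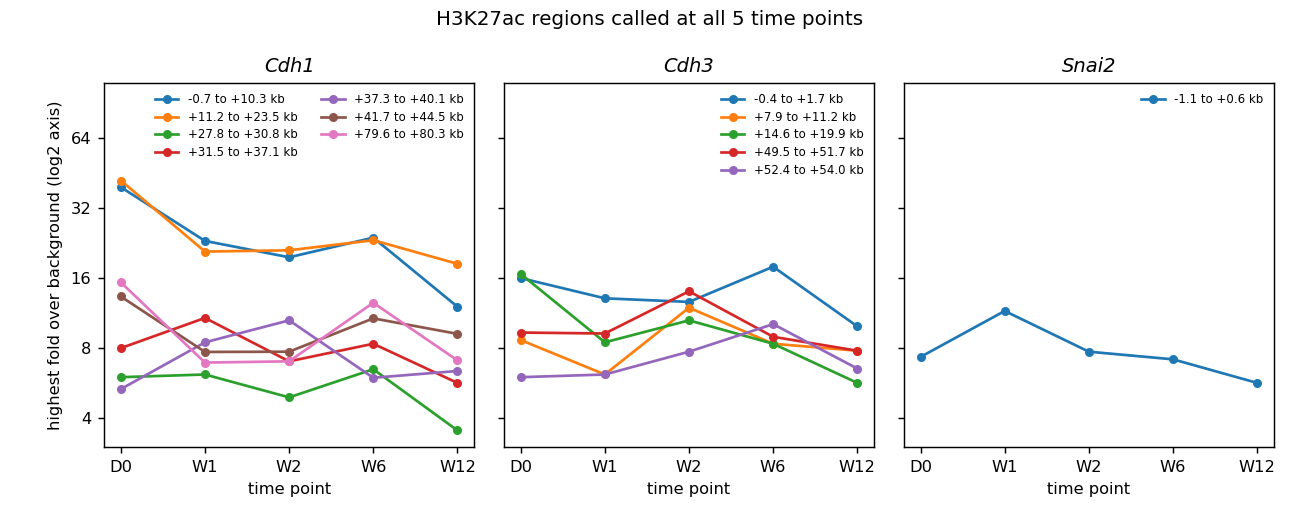
Highest fold over background (log2 axis) at D0, W1, W2, W6 and W12 in the 13 H3K27ac regions that were called at all 5 times, 7 at *Cdh1*, 5 at *Cdh3* and 1 at *Snai2*, 1 line per region labelled by distance from the start site. The *Cdh1* promoter and intron 2 regions are the highest at each time, and the *Snai2* promoter is highest at W1.

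H3K4me1 over the cadherins at W12 stayed close to its earlier extent, unlike H3K27ac. At *Cdh1* it covered 69.45, 62.05, 58.45, 60.85 and 58.45 kb from D0 to W12, and at *Cdh3* 46.9, 44.1, 42.9, 43.9 and 43.3 kb. Neither gene met the 1.5-fold rule in H3K4me1 at any time. The widest *Cdh1* domain measured 47.6, 49.6, 46.2, 45.6 and 46.2 kb and ranked in the top 0.0377 to 0.0776% of domains. The H3K27ac peaks of both genes overlapped H3K4me1 domains of the same time except for 1 peak of each at W6. Of the 7 *Cdh1* and 3 *Cdh3* H3K4me1 regions, 6 and 3 were called at every time. The domain that reaches both windows is in both counts, also in region totals over the loci.

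The lower H3K27ac at the cadherins at W12 has to be read against the whole list. Between D0 and W12, 2 members, *Cdh1* and *Cdh3*, were lower, as were 28.9% of all genes, and 3 were higher (10.6% of all genes), namely *Vim*, *Zeb1* and *Zeb2*. The median ratio of W12 to D0 was 0.675 over 12899 genes and 0.602 over the 3 members that had H3K27ac at D0, *Cdh1*, *Cdh3* and *Snai2*. Fewer H3K27ac-bearing cells and less H3K27ac per cell cannot be told apart in such bulk lists. No member was higher or lower at W1 (12.7% of all genes higher and 13.3% lower), at W2 (16.0% and 11.1%) or at W6 (19.7% and 8.36%). In terms of single peaks, the loci held 24, 21, 28 and 32 from W1 to W12, of which 7, 4, 6 and 9 had no overlapping peak at D0, against 41.3, 40.1, 39.8 and 56.2% of all peaks. Of the 28 peaks at D0, 6, 8, 6 and 10 had no overlapping peak at the same later times (37.4, 38.6, 37.8 and 53.7% of all peaks). Of 35 H3K27ac regions in the 10 windows, 13 were called at every time, 3 at D0 only, 7 at W12 only, and 0 were absent at D0 and then called at every time from W2 on. These region classes were not counted over all genes.

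Among the SNAI family, *Snai2* (mm10 chr16:14705852-14709385, plus strand), which encodes SLUG, a factor normally present in basal keratinocytes, was the only EMT factor with H3K27ac throughout. It had 2, 2, 2, 1 and 3 peaks from D0 to W12, which covered 1.30, 1.33, 1.43, 1.46 and 1.60 kb. The promoter region, from -1.09 to 0.578 kb, was called at all 5 times with folds of 7.33, 11.5, 7.72, 7.16 and 5.67. It was thus highest at W1, and it then also stood highest in its list, in the top 8.06% against 36.0 to 44.9% at the other times. These folds do not follow a single site. From D0 to W12 the summits lay at 335, -249, 99, -164 and -855 bp from the start site. At W12 no peak covered the start site, the nearest lay 713 bp away, and the peak of this region did not overlap that of D0. H3K4me1 at *Snai2* covered 13.2, 10.6, 14, 8.4 and 9.8 kb, with the lowest value at W6, when it was lower by the 1.5-fold rule.

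*Snai1* (mm10 chr2:167538195-167542814, plus strand) encodes SNAIL. It carried no H3K27ac in any list, and the nearest peak lay 27.2 to 33.8 kb from the gene body. H3K4me1 was nevertheless present at its promoter at all times, with covered lengths of 6.01, 4.61, 8.41, 8.01 and 8.61 kb, and none of the later times met the 1.5-fold rule. A domain at 23.2 to 27.2 kb downstream was also called at every time, and one at 12.2 to 15.2 kb at W6 and W12 only.

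The ZEB genes encode zinc finger repressors of epithelial genes. Both had more H3K4me1 than at D0 by the 1.5-fold rule at W1, W2 and W12, and among the other members *Vim* alone met the rule in that direction, at W12. The calls depend on the settings. With 50 kb flanks *Zeb2* met the rule at no time and *Zeb1* at W1 had less than D0 (-1.2 kb), with intervals above the median score *Zeb1* had a difference of 0 kb at W1, W2 and W12, and under a 2-fold rule neither gene was higher at W12. *Zeb2* (mm10 chr2:44983632-45117395, minus strand) had 9.2 kb of H3K4me1 at D0 and 15.4, 18.4, 12.2 and 16.8 kb at W1, W2, W6 and W12. All later values were above D0, and W1, W2 and W12 met the 1.5-fold rule. Of its 11 regions, 4 were called at every time, including the promoter, and 1, at 96.8 to 101 kb in the gene body, was absent at D0 and called at W1, W2, W6 and W12. It was the only one of the 48 H3K4me1 regions of the 10 loci with that course. Another, at 131 to 133 kb, was called at W1, W2 and W6. The gene was without H3K27ac up to W6, when the nearest peak lay 55.7 to 55.9 kb from the gene body, near the start of *Gtdc1*. At W12 a peak in intron 3 (13.4 to 13.8 kb, fold 5.22) and one in intron 1 (1.34 to 2.17 kb, fold 3.54) covered 1.21 kb. Both were of middling or low strength, the first in the top 47.7% of its list.

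*Zeb1* (mm10 chr18:5591860-5775467, plus strand) had little of either mark in skin. H3K4me1 covered 1.2, 2.4, 5.6, 0 and 1.8 kb from D0 to W12. The promoter domain was present at D0, W1 and W2 and absent at W6 and W12, and the only domain at W12 lay at 73.9 to 75.7 kb. The D0 promoter call was an edge overlap. That domain began 941 bp from the start site and covered 60 of the 2001 promoter bases, against 1460 at W1 and 1860 at W2. The nearest H3K27ac peak lay 257 kb from the gene body at D0, 44.5 and 44.4 kb at W1 and W2 and 31.0 kb at W6, always outside the flanks. Measured from the start site, the nearest peak was at 257 kb at D0 and 176848 to 177064 bp at W1, W2 and W6. At W12 one peak of 1859 bp lay in intron 4 (166.2 to 168.1 kb, fold 5.50, in the top 46.9% of the list). It lay in no skin H3K4me1 domain at any time, but a culture domain at 167.0 to 167.6 kb overlapped it without DOX and with ΔHMG-SOX9.

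**Figure D4:**
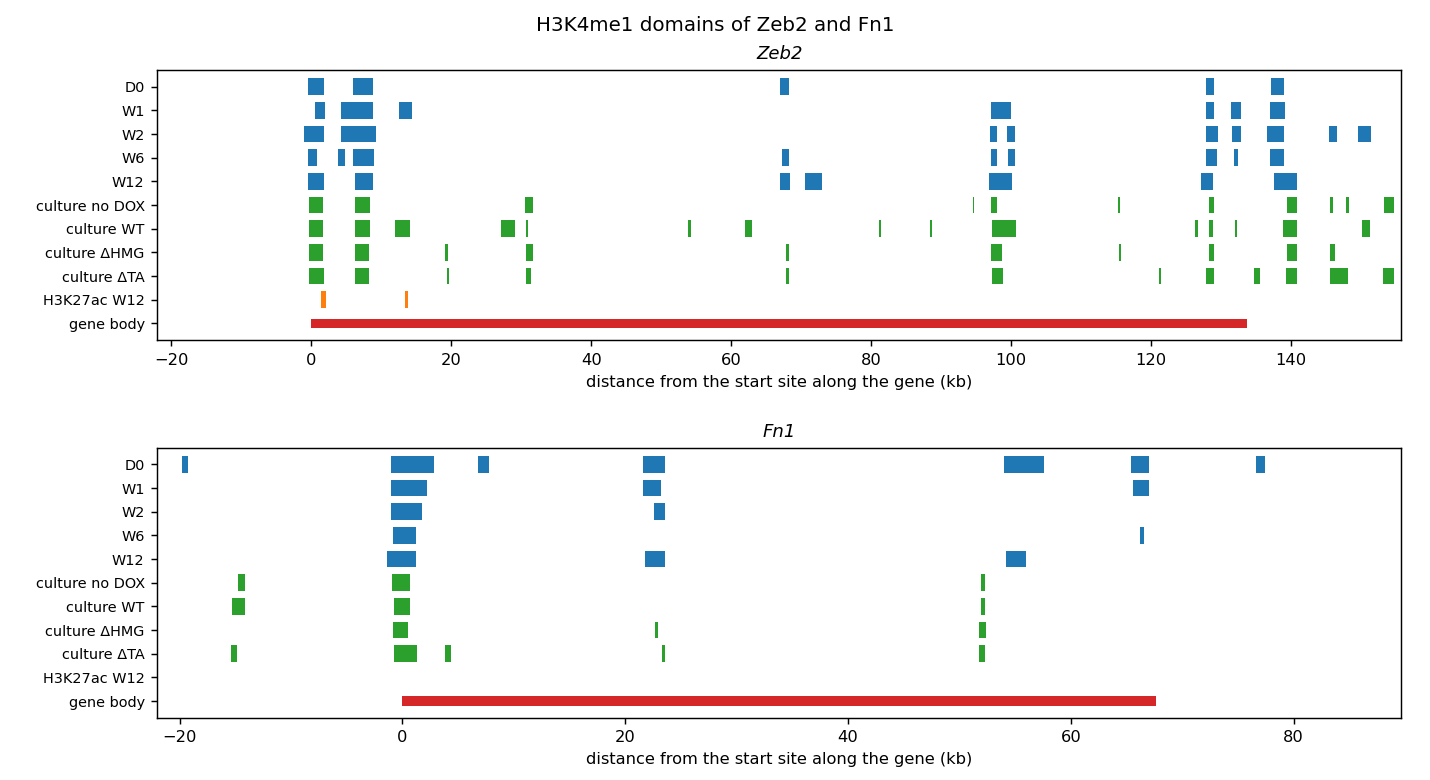
H3K4me1 domains of *Zeb2* (top) and *Fn1* (bottom) by distance from the start site along the gene in kb, in skin (blue) and culture (green), with the H3K27ac peaks of W12 (orange) and the gene body (red). The *Zeb2* region near 100 kb is missing at D0 and present at W1, W2, W6 and W12, and *Fn1* has 7 domains at D0 and 2 or 3 later.

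The TWIST genes, which encode basic helix-loop-helix factors of embryonic mesenchyme, held narrow H3K4me1 domains and almost no H3K27ac. *Twist1* (mm10 chr12:33957671-33959829, plus strand) had 4.2, 1.8, 2.4, 4.0 and 3.0 kb of H3K4me1 from D0 to W12. Its promoter domain (-1.47 to 1.53 kb) was called at every time but W1, and coverage was lower than D0 at W1 and W2. The nearest H3K27ac peak was 527 kb away in all 5 lists, the greatest distance of the 10 genes. The 250 bases before its RefSeq start (GRCm38.p6, plus strand) are shown because H3K4me1 at this promoter was not called in every list.
Twist1 promoter, chr12:33957421-33957670: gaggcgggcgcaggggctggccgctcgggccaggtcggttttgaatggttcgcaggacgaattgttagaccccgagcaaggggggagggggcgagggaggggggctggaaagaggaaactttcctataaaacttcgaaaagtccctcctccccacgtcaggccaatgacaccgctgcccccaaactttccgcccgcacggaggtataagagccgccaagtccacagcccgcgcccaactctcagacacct
It holds 18 CpG and none of the 3 motifs, which occur in 28.6% (SOX core), 20.2% (E-box) and 5.20% (AP-1) of 32851 RefSeq promoter windows of 300 bases. In that table, whose median is 7 CpG per window, *Snai1* (34), *Twist1* (27), *Twist2* (25), *Vim* (11) and *Zeb2* (9) were all above the median. The window of *Snai1* alone among them held an E-box. The table matched 5 of the 10 members.

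*Twist2* (mm10 chr1:91801461-91848028, plus strand), also known as a dermal fibroblast gene, had 3.2, 3.4, 4.4, 3.4 and 3.8 kb of H3K4me1, and its promoter domain was called at every time. Its H3K27ac was limited to 1 peak of 336 bp at W1 (fold 3.41, 34.0 kb downstream of the start) and 1 of 316 bp at W12 (fold 3.92, 32.1 kb downstream). They did not overlap each other or any H3K4me1 domain of skin.

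*Vim* (mm10 chr2:13573927-13582826, plus strand) encodes vimentin, the intermediate filament of mesenchymal cells. Its promoter domain of H3K4me1 (-1.73 to 2.87 kb) was called at all 5 times, and the covered length was 3.8, 3.8, 4.0, 4.8 and 5.8 kb from D0 to W12. The W12 value alone met the 1.5-fold rule. H3K27ac was absent to W6, when the nearest peak lay 28.8 to 29.0 kb away near *Trdmt1*. At W12 one peak lay at -1.31 to -0.888 kb (fold 4.25, pileup 5 reads, in the top 70.9% of the list) and one at -14.0 to -13.7 kb (fold 3.54). The first touched the promoter H3K4me1 domain of every time; it lay wholly inside that of W1, W2 and W12 and reached past the edge of those of D0 and W6. It counted as a promoter peak from the GENCODE start, 888 bp away, but not from the RefSeq start, which is 384 bp further downstream and 1272 bp from the peak.

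*Fn1* (mm10 chr1:71585520-71653200, minus strand) encodes fibronectin, a matrix protein of mesenchymal cells and wounds, and ran opposite to *Zeb2*. H3K4me1 covered 13.4 kb at D0 and 6.2, 3.8, 2.4 and 6.2 kb at W1, W2, W6 and W12. All 4 later values were lower than D0 by the 1.5-fold rule, by 3.53-fold at W2. The promoter domain stayed at every time. The difference lay in the gene body and flanks, with 7 domains at D0 against 3, 2, 2 and 3 later, and 3 of the 7 regions were called at D0 only. No H3K27ac peak lay in the window in any list.

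Over all members, H3K4me1 at W1 was higher than D0 at 2 of 10 (*Zeb1* and *Zeb2*; 2.89% of all genes) and lower at 2 (*Twist1* and *Fn1*; 17.9%). At W2 the same 2 and 2 genes were higher (8.76%) and lower (18.6%). At W6, 0 were higher (7.48%) and 3, *Zeb1*, *Snai2* and *Fn1*, lower (18.2%), and at W12, 3, *Vim*, *Zeb1* and *Zeb2*, were higher (7.67%) and 1, *Fn1*, lower (19.8%). The median ratio to D0 over the 10 genes was 0.917, 1.06, 0.944 and 1.06 at W1, W2, W6 and W12, against 0.844, 0.886, 0.874 and 0.851 over 17981 genes. The fibroblast marker list moved the other way from *Zeb2*, with summed H3K4me1 of 76.2, 53.6, 49.8, 42.0 and 47.9 kb, as did the pericyte list (42.4, 31.0, 26.9, 32.2 and 26.4 kb). Of the fibroblast markers, *Lum* was at 0 at D0, W2, W6 and W12 and *Col1a2* at W1, W6 and W12. Of the pericyte markers, *Acta2* (22.8, 14.2, 7.99, 12.8 and 15.2 kb) and *Pdgfrb* were lower by the rule at all 4 later times. *Myh11* had 12, 13, 15.7, 14.8 and 8.8 kb and met the rule at no time. The endothelial list was highest at W12 (74.6, 61.8, 67.6, 72.8 and 90.8 kb). Most of each sum lay in the *Pecam1* window (62.4, 53.2, 51.4, 57.8 and 68.4 kb), and *Cdh5* and *Emcn* were at 0 at D0 and W1. The melanocyte list as a sum ran the same way as *Zeb2*, with 76.6, 94.0, 105, 87.2 and 93.8 kb, but its markers differed. *Mitf*, a melanocyte regulator gene, had 32.2 kb at D0 and 58.4, 71.4, 51.0 and 46.0 kb later and met the 1.5-fold rule at W1, W2 and W6. *Pmel* was below D0 at every later time, with 27.4, 19.8, 16.6, 20.4 and 22.8 kb, and was lower by the rule at W2. *Dct* had 15, 13.2, 14.6, 15.8 and 22.2 kb, *Kit* at most 2.8 kb, and *Tyr*, the tyrosinase gene, was at 0 at every time. The immune list had 45.4, 28.0, 35.5, 41.4 and 38.4 kb, with *Cd207* and *Lyz2* at 0 at D0, W2, W6 and W12, and the basal list 348 to 393 kb. The part of these cell types in the member values was not tested.

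Of the 6 members without an H3K27ac peak from D0 to W6, 3, *Vim*, *Zeb1* and *Zeb2*, had one at W12. Among all 6278 genes without a peak at the earlier times, 17.1% had one at W12. Over the whole W12 list, 13856 peaks had no overlap with an earlier list, and 47.5% of them overlapped a W12 H3K4me1 domain. Of the 2 *Vim*, 1 *Zeb1* and 2 *Zeb2* peaks, 1, 0 and 1 did. All 5 had folds of 3.54 to 5.50, below the highest fold of *Cdh1* (18.4) and *Cdh3* (9.92) in the same list.

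In culture, where cells had only H3K4me1 lists, the cadherins again had high coverage, and *Zeb1*, *Zeb2* and *Twist2* were the members with at least 1.5-fold more under WT SOX9 than without DOX. Promoter H3K4me1 was present at 10 of 10 genes without DOX (52.4% of all genes), and at 9, 8 and 8 under WT, ΔHMG-SOX9 and ΔTA-SOX9 (53.5, 48.8 and 49.6%). The promoters without a domain were *Cdh3* in all 3 DOX conditions and *Cdh1* with both truncated forms. The *Cdh3* domain called without DOX only was short, at -0.379 to -0.139 kb with fold 2.69, and the next domain lay 1486 to 1541 bp from the start site. At *Cdh1* a domain at -0.967 to -0.301 kb was called without DOX (fold 2.22) and with WT SOX9 (fold 2.11), and with ΔHMG-SOX9 and ΔTA-SOX9 the nearest lay 2067 and 2040 bp away. Total coverage at *Cdh1* was 30.7 kb without DOX, 25.5 kb with WT, 26.3 kb with ΔHMG and 21.8 kb with ΔTA, and at *Cdh3* 18.4, 17.9, 18.8 and 16.7 kb, none of them past the 1.5-fold rule.

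*Zeb2* had 10.3 kb of H3K4me1 without DOX, against 18.9, 10.6 and 13.9 kb under WT, ΔHMG-SOX9 and ΔTA-SOX9. WT SOX9 alone met the 1.5-fold rule, though not a 2-fold rule, and 9 of the 23 *Zeb2* regions were called with WT SOX9 only, against 2 with ΔTA only and 0 with ΔHMG only. Over the whole lists, 29.1, 25.8 and 19.3% of domains with WT, ΔTA and ΔHMG had no overlapping domain without DOX. The share called in a single condition was not counted over all genes. Some of these 9 WT-only regions overlapped skin intervals. Such overlaps of culture and skin, here and at the other members, were not counted over all genes. The region at 11.996 to 14.159 kb (fold 2.86) overlapped the skin domain at 12.6 to 14.4 kb that was called at W1 only, and the intron 3 H3K27ac peak of W12. The region at 131.9 to 132.3 kb (fold 3.84) overlapped the skin domain of W1, W2 and W6, and the one at 150 to 151 kb (fold 3.88) a skin domain of W2. By contrast, the skin region at 96.8 to 101 kb that appeared after D0 was called in every culture condition, without DOX included.

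*Zeb1* had 3.75 kb of H3K4me1 without DOX and 6.04, 6.78 and 7.08 kb with WT, ΔHMG-SOX9 and ΔTA-SOX9, so that all 3 DOX conditions, and not WT SOX9 alone, met the rule. The promoter domain was called in every condition with folds of 8.34, 6.74, 5.11 and 5.28. Of 15 regions, 4 were called with WT SOX9 only, and the one at 74.2 to 74.6 kb (fold 3.72) overlapped the skin domain of W12. *Twist2* had 4.85, 9.23, 6.35 and 7.07 kb, higher with WT SOX9 only by the rule. Its domain at 56.1 to 57.3 kb was the only one of 102 culture regions called in all 3 DOX conditions and not without DOX, with folds of 4.66, 3.71 and 5.34, and the skin list of W2 also held it. *Twist1* had 5.90 kb without DOX and 4.72, 3.85 and 3.07 kb, lower with both truncated forms, and *Snai2* had 2.56 kb without DOX and 2.17, 0.987 and 3.15 kb, lower with ΔHMG-SOX9. *Snai1* (6.48, 6.28, 5.83 and 7.87 kb) and *Vim* (5.70, 5.27, 4.38 and 5.20 kb) stayed within the rule in covered length, and *Fn1* (2.54, 3.02, 2.17 and 3.92 kb) was higher with ΔTA-SOX9. Of 6 *Vim* regions, 4 were called in every condition and 2 with WT SOX9 only. The strongest *Vim* domain, upstream of the start site, had folds of 5.05, 6.69, 6.40 and 7.12, in the top 11.3, 0.0586, 1.52 and 1.81% of the 4 lists.

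Counted together, 3 members were higher with WT SOX9 (*Zeb1*, *Zeb2* and *Twist2*; 15.4% of all genes) and 0 lower (8.42%). With ΔHMG-SOX9, 1 was higher (*Zeb1*; 8.44%) and 2 lower (*Snai2* and *Twist1*; 5.66%), and with ΔTA-SOX9, 2 were higher (*Zeb1* and *Fn1*; 14.6%) and 1 lower (*Twist1*; 5.42%). The median ratio to no DOX over the 10 genes was 0.970, 0.878 and 1.22 for WT, ΔHMG and ΔTA, against 1.05, 1.01 and 1.06 over 18019 genes. Of the 102 regions, 47 were called in every condition, 16 with WT only, 11 with ΔTA only, 3 with ΔHMG only and 5 without DOX only. Such classes, also those of single genes, were not counted over all genes, so no background share stands beside them. The 3 comparisons share the list without DOX.

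The miR-200 microRNAs are known to silence *Zeb1* and *Zeb2* transcripts and to keep cells epithelial. The mature sequences (RefSeq, 5′ to 3′, seed of bases 2 to 8 in capitals) are shown because the family falls into a pair of seed groups that differ at a single seed base and lie in 2 clusters, on chromosome 4 (miR-200a, miR-200b, miR-429) and chromosome 6 (miR-141, miR-200c).
mmu-miR-141-3p: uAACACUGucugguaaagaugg
mmu-miR-200a-3p: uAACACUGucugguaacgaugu
mmu-miR-200b-3p: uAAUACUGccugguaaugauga
mmu-miR-200c-3p: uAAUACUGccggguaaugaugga
mmu-miR-429-3p: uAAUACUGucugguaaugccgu
The windows of genes in a cluster overlap, so they are not independent. H3K27ac over the *Mir200a* window covered 4.59, 5.35, 6.69, 8.50 and 5.02 kb from D0 to W12, and over the *Mir200c* window 4.58, 5.54, 5.85, 7.50 and 3.98 kb. Both clusters were thus highest at W6, when all 5 genes were higher than D0, as were 19.7% of all genes. Both clusters were back within 1.5-fold of D0 at W12. The median H3K27ac ratio to D0 over 12899 genes was also highest at W6, at 1.12. In skin H3K4me1 none of the 5 met the rule at any time. In culture, 15.4% of all genes were higher with WT SOX9 than without DOX. The *Mir200a* window there went from 5.59 kb without DOX to 9.71 kb with WT SOX9, against 6.38 kb with either truncated form. The *Mir200c* window did not follow it, with 10.6 kb without DOX and 9.64, 13.0 and 11.5 kb under WT, ΔHMG-SOX9 and ΔTA-SOX9, none of them past the rule.

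Further genes of EMT were read from a list of 22 epithelial and one of 22 mesenchymal genes. At D0, 19 of 22 epithelial genes had promoter H3K27ac, then 17, 18, 18 and 17 at W1, W2, W6 and W12. The shares of all genes were 42.4, 40.8, 41.7, 46.0 and 34.0% from D0 to W12. H3K27ac was higher than D0 at 3, 5, 4 and 1 of them and lower at 5, 2, 1 and 4. Over all genes, 12.7, 16.0, 19.7 and 10.6% were higher and 13.3, 11.1, 8.36 and 28.9% lower. *Grhl3*, which encodes a factor of epidermal barrier formation, was lower at all 4 times (14.3 kb at D0 and 8.99, 7.43, 8.98 and 7.04 kb later), and *Ctnna1*, which encodes the α-catenin that ties cadherins to actin, was higher at all 4 (2.02 kb and then 3.16, 5.55, 4.92 and 3.62 kb). *Epcam*, an epithelial adhesion gene, went from 4.31 kb to 2.58, 7.15, 8.44 and 4.21 kb.

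Of the 22 mesenchymal genes, 6, 7, 8, 8 and 7 had promoter H3K27ac from D0 to W12 (42.4, 40.8, 41.7, 46.0 and 34.0% of all genes). H3K27ac was higher than D0 at 4, 7, 4 and 3 of them and lower at 0, 1, 2 and 5 (again against 12.7, 16.0, 19.7 and 10.6% of all genes higher and 13.3, 11.1, 8.36 and 28.9% lower). *Tcf4*, which encodes an E protein partner of the TWIST factors, had 3.25, 4.69, 5.48, 7.50 and 11.4 kb, and *Tnc*, the matrix gene tenascin C, 0.302, 0.631, 1.98, 1.14 and 1.30 kb, with a promoter peak from W2 on. In skin H3K4me1, 0, 7, 0 and 0 of the 22 were higher (2.89, 8.76, 7.48 and 7.67% of all genes) and 6, 2, 6 and 5 lower (17.9, 18.6, 18.2 and 19.8%). *Cdh2*, which encodes N-cadherin, the cadherin that mesenchymal cells put in place of E-cadherin, had no H3K27ac in any skin list and 1.2 to 3.2 kb of H3K4me1. In culture, however, *Cdh2* had 18.9 kb of H3K4me1 without DOX and 42.0, 25.4 and 36.2 kb with WT, ΔHMG-SOX9 and ΔTA-SOX9. *Tcf4* was higher with WT SOX9 alone, at 56.0 kb against 25.8 kb without DOX and 25.1 and 27.4 kb with the truncated forms. Over the 22 genes, 4 were higher and 4 lower with WT SOX9 (15.4 and 8.42% of all genes), 2 and 1 with ΔHMG (8.44 and 5.66%) and 6 and 4 with ΔTA (14.6 and 5.42%).

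**Figure D5:**
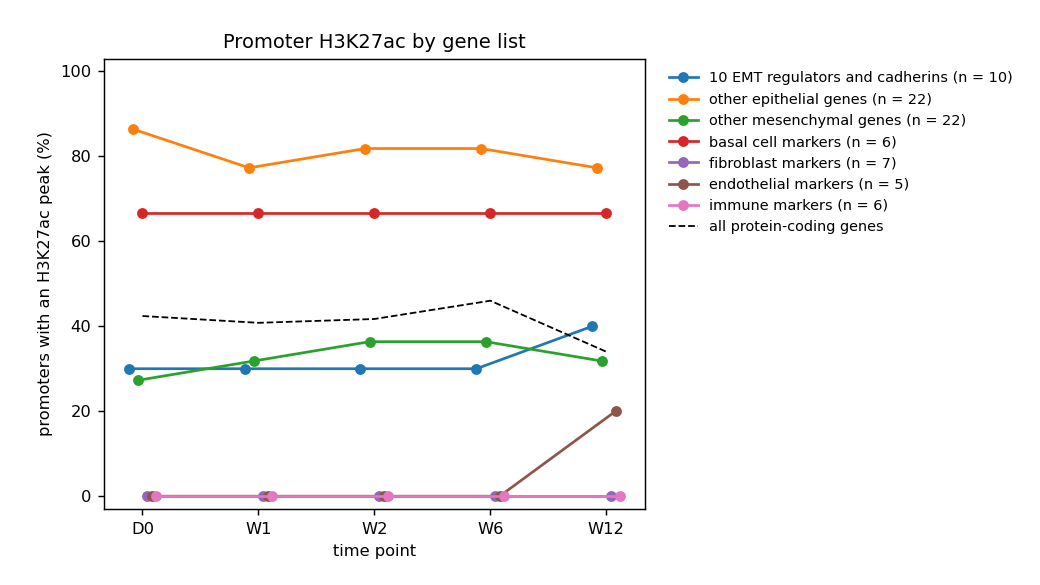
Percent of genes with an H3K27ac peak within 1000 bp of the start site at D0, W1, W2, W6 and W12 for the 10 genes, the 22 other epithelial and 22 other mesenchymal genes, and the basal, fibroblast, endothelial and immune marker lists, with all protein-coding genes as a dashed line. The 10 genes stay at 3 of 10 until W6 and reach 4 of 10 at W12, while fibroblast and immune markers stay at 0.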

How the data were processed

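MINT-ChIP libraries of sorted mouse EpdSCs (H3K4me1, H3K27ac, total H3) and of cultured keratinocytes (H3K4me1) were grouped by their labels. Per the submitters' notes and the study's methods, the authors trimmed reads with Skewer, aligned them to mm10 with Bowtie2 2.2.9, removed duplicates with Picard, merged replicates with SAMtools 1.9, and called skin H3K4me1 domains with Epic2 (the notes name SICER 0.0.36) and H3K27ac peaks with MACS2 2.1.1; the settings of the culture calls are not given in the sources used here. The deposited lists held a p-value per skin H3K4me1 domain and, per H3K27ac peak and culture domain, a score, a fold over background as a ratio, and −log10 q (their −log10 p was not used). H3K27ac lists also gave the summit offset. H3K27ac pileups were recovered from the folds, which lay on steps of whole reads (tolerance 0.002) for 82.3 to 95.9% of peaks. The 14 barcode files hold no measurement and were not used. One further marker list is not reported here.

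Intervals touching a gene body with 20 kb flanks by 1 bp were counted and their covered bases summed, for all 21938 protein-coding genes on 21 chromosomes. The change rule was 1.5-fold with at least 500 bp, and the promoter was 1000 bp on either side of the GENCODE start. Every list pools its group, so no test was run and no interval could be given. All 10 members were named in full; the members, marker and gene lists were chosen with earlier results of these data known. Within a locus, the strongest peak of each list, promoter regions and regions called at every time, at D0 only or after D0 and kept were named; others, such as W12-only regions, were named after their values were seen. Alternatives were flanks of 0, 10 and 50 kb, intervals above the median score, lists of equal length, intervals within 1000 bp joined, a 50% overlap, a promoter of 2500 bp, any annotated start site and a 2-fold rule. Scripts used Python 3.11.15, numpy 2.4.6, pandas 2.3.3, pysam 0.24.0 and matplotlib 3.10.9 and were tested on simulated intervals with known answers. Sequences came from the mm10 genome and RefSeq tables (GRCm38.p6).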

Additional observations from a re-analysis of the deposited data

How the results depend on the processing

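No paired analysis was possible because each list pools the replicates of its group, and leaving out a replicate was not run for the same reason. Of 265 recomputed values of 40 summary counts, 212 stayed within 1.5 times the reported count and 53 moved. A count has no sign, so reversal was looked for in single members only. Of 174 values of 29 changes of single members, 138 stayed, 34 moved and 2 reversed. Neither promoter counts nor any other count moved with flanks of 10 kb, an overlap of 50%, a promoter of 2500 bp or any annotated start site. The cause of the moves was not tested.

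With flanks of 50 kb, loci with an H3K27ac peak became 6, 8, 7 and 7 at D0, W1, W2 and W6. H3K27ac was then lower at 1 locus at W1 and 4 at W12 and higher at 2 at W2 and 1 at W6. H3K4me1 was higher at 0 at W1, 1 at W6 and 1 at W12, culture H3K4me1 was lower at 1 with ΔHMG-SOX9, and 16 peaks of W12 had no overlapping peak at D0. *Zeb1* H3K4me1 reversed, from 1.2 to -1.2 kb for W1 minus D0 and from -1.2 to 4.0 kb for W6 minus D0. Without flanks, H3K27ac was lower at 1 locus at W6, culture H3K4me1 was higher at 2 and lower at 0 with ΔHMG and higher at 4 and lower at 0 with ΔTA, and 5 peaks of W12 had none at D0.

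With intervals above the median score, H3K27ac was lower at 1 locus at W2 and higher at 1 at W12. H3K4me1 was higher at 1 each at W1, W2 and W6 and lower at 2 at W12, and culture H3K4me1 was lower at 1 with WT, higher at 0 with ΔHMG and higher at 4 with ΔTA. Peaks without a D0 peak were 3, 2 and 1 at W1, W2 and W6, and D0 peaks without a later peak 2, 2, 3 and 4 at W1, W2, W6 and W12. With lists of equal length, H3K4me1 was lower at 0 at W1 and 1 at W2 and higher at 2 at W6, and culture H3K4me1 was higher at 1 with ΔTA. With intervals joined, 1, 5, 2 and 3 D0 peaks had no peak at W1, W2, W6 and W12, and 2 peaks of W2 had none at D0.

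Under the 2-fold rule, H3K27ac was lower at 0 loci at W12, so that the calls of *Cdh1* and *Cdh3* rest on the 1.5-fold rule. H3K4me1 was then higher at 1 at W1 and 0 at W12 and lower at 1 at W2. Culture H3K4me1 was higher at 0 with WT, ΔHMG and ΔTA and lower at 1 with ΔHMG and 0 with ΔTA, so that the culture call of *Zeb2* also ends. Without replicate lists or read totals, the depth behind a missing interval is unknown.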
